A study of Mus musculus with 4 samples.

Results

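Aminoacyl-tRNA synthetases were described in intestinal organoids of the mouse, which are epithelial cultures recovered from Matrigel, before and after induced recombination of Apc. The genes were chosen by name from the annotation of the array's probe sets, the groups of short probes that together report 1 transcript. Symbols of 1 capital letter and ars, Eprs, or Fars, with a short ending such as 2, a or l2, were taken and kept where they name a synthetase. This gave 36 genes of 18193, read by 73 of the 34945 probe sets that name 1 gene. All 36 passed a filter on level that 13192 genes passed, by which the highest of a gene's 4 intensities had to reach 20.9, the median over the whole table. By compartment, 18 encode enzymes of the cytosol, 16 enzymes of mitochondria, and 2 (Gars and Kars) enzymes of both.

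Each of the 4 arrays held 1 group. All organoids carried floxed Apc alleles (Apc fl/fl). A pair of groups was given 4-hydroxytamoxifen (4OHT) for 24 h to recombine Apc, the others were left untreated, and each kind was collected at day 4 and at day 6. The sources used here do not name the Cre line that 4OHT acts on, and no 4OHT-treated organoids without floxed alleles are among the arrays. No group had replicates, so the number of arrays limits the precision.

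A synthetase joins an amino acid to its tRNA at the cost of ATP, and the charged tRNA carries it to the ribosome. Cytosol and mitochondria translate separately, and most amino acids have a nuclear gene for each compartment. Several cytosolic enzymes sit in a multi-synthetase complex held together by the scaffold proteins encoded by Aimp1, Aimp2 and Eef1e1. When amino acids run short, uncharged tRNA activates the kinase encoded by Eif2ak4 (GCN2), and the transcription factor ATF4 then induces amino acid transporters, synthesis enzymes and many cytosolic synthetases. In the intestine, protein synthesis runs high in dividing crypt cells and in secretory cells.

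RefSeq promoter windows, running from 250 bases before to 50 bases after the start of a gene in build GRCm38.p6, were found for 27 of the 36 genes. They were searched on both strands for the composite element that ATF4 binds, written as TGATGNAAT and as TGATGCAA, and for the E-box CACGTG, to which Myc and its partner bind. The first 2 patterns can overlap in 1 site. TGATGNAAT stood in the windows of 3 synthetase genes (Aars, Gars and Iars) and in 0.965% of all 32851 windows. TGATGCAA stood in 4 (Aars, Iars, Tars and Yars) and in 0.895% of all windows. CACGTG stood in 5 (Aars, Ears2, Farsb, Iars and Tars) and in 7.15% of all windows. The 5 genes with either form of the composite element are shown because they are the members with this letter pattern, and their changes over time went in both directions, as described further on. The stretch of Aars lies at chr8:111033686-111033747 on the plus strand, that of Gars at chr6:55037959-55037988 on the plus strand, that of Iars at chr13:49682125-49682154 on the plus strand, that of Tars at chr15:11399655-11399684 on the minus strand and that of Yars at chr4:129189895-129189924 on the plus strand. Capitals mark the composite element and, in Aars, also the E-box before it.
Aars: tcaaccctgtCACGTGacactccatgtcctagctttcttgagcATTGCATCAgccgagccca
Gars: ctggctgcgctATTTCATCAtgcaccgggc
Iars: gcactgtcagtATTGCATCAcctccagacg
Tars: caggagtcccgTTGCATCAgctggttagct
Yars: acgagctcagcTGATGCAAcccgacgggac
The element begins 113 bases before the start in Aars, 31 in Gars and 15 in Tars, and lies after the start in Iars and Yars. A match is a description of these letters and shows no binding.

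The arrays differed as wholes in ways that touch the results. Median probe-set intensity was 22.0 untreated and 21.9 with 4OHT at day 4, and 19.3 and 19.5 at day 6, with a wider range between the 5th and 95th percentiles at day 6. The scaling between days is unknown. The 3' minus 5' difference of the Actb control probe sets, which grows where labelled copies are short, was 0.94 larger on the log2 scale with 4OHT at day 4 and 0.62 larger at day 6. From day 4 to day 6 it was smaller by 1.24 in untreated and by 1.56 in 4OHT-treated organoids. All 8 epithelial markers (Epcam, Cdh1, Krt8, Krt18, Krt20, Vil1, Cdx1 and Cdx2) passed the level filter, with summed intensities of 13992 to 24333. Those of 6 fibroblast markers summed to 66.7 to 121 and those of 3 endothelial markers to 39.5 to 81.1. The sum of 5 immune markers ran from 561 to 2148 and was mostly Lyz2 (497 to 2046), while Ptprc, the defining gene of that list, lay under the level filter. In these bulk samples, fewer cells of a type and less RNA per cell cannot be told apart.

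**Figure D1:**
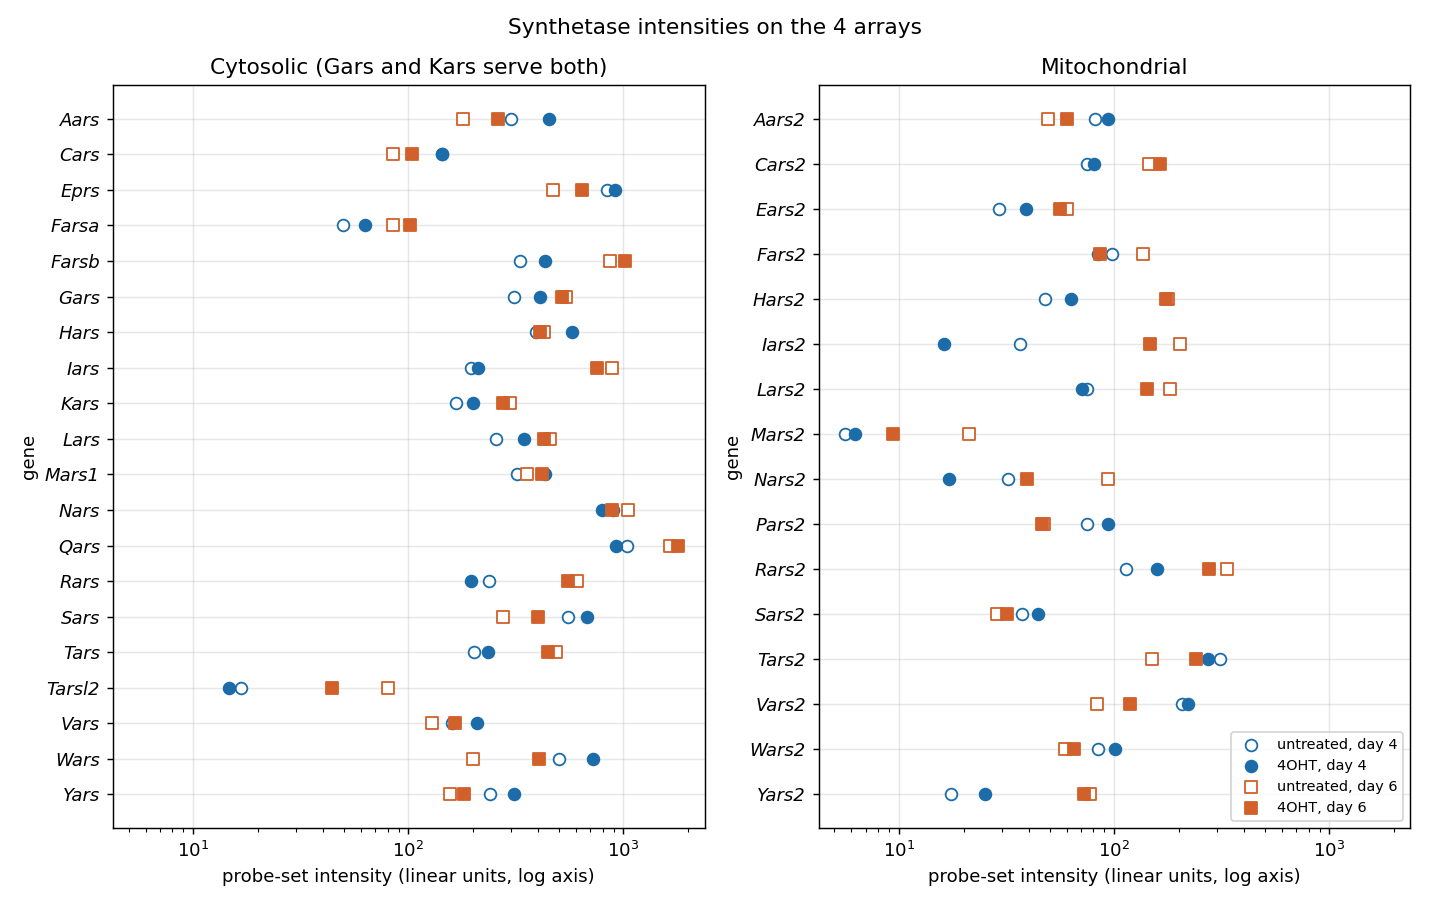
Probe-set intensity (linear units on a log axis) of each synthetase gene on the 4 arrays, 1 point per array, with cytosolic and dual genes on the left and mitochondrial genes on the right. Circles are day 4, squares day 6, open symbols untreated and filled symbols 4OHT. For genes such as Iars (195 to 889) and Iars2 (16.2 to 203) the days stand further apart than the arms. Positions of different genes are not comparable, since probe sets differ in brightness.

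The first comparison asked which synthetase genes differed after recombination of Apc. None of the 36 passed the test. In single arrays, 9 of 18 cytosolic genes stood higher with 4OHT on both days, with Wars, Aars, Sars and Vars at their head by the difference over both days, and the mitochondrial genes Nars2 and Iars2 stood lower on both days. The median difference of the 18 cytosolic genes, on the log2(intensity + 16) scale used for all differences here, was 0.28 at day 4 and 0.21 at day 6. That of the 16 mitochondrial genes was 0.13 and -0.05, and that of all genes past the filter was 0.06 and -0.0044. Without the probe sets whose names end in _x_at or _s_at, which can bind several transcripts, the cytosolic median at day 6 was -0.073. The test was limma's, fitted over the 4 arrays with additive terms for treatment and day. After Benjamini-Hochberg adjustment over 13192 genes, 0 of 36 synthetase genes rose and 0 fell, where 0.97% of all genes rose and 2.25% fell. At an unadjusted p under 0.05 there were 4 (Aars, Iars2, Nars2 and Wars), against 13.9% of all genes. Standard errors of the 36 ran from 0.208 to 0.231, and the single residual degree of freedom behind them, moderated over genes, comes from how far the 4OHT effect at day 6 departs from that at day 4. It does not measure the spread between cultures, and a p that misses the threshold does not show that a gene did not differ. The part of the larger 3' minus 5' difference with 4OHT, given above, in these differences was not tested.

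Among cytosolic genes, Wars, whose tryptophanyl-tRNA synthetase is also known as an interferon-induced protein, had an intensity of 502 untreated and 723 with 4OHT at day 4, and 201 and 405 at day 6. Its 4OHT array was the higher of both days, 1.43-fold at day 4 and 1.94-fold at day 6. The difference over both days was 0.73 ± 0.22 (SE, 4 arrays, limma, adjusted p = 0.0853), so that it did not pass. All 4 probe sets of Wars passed the level filter, and 3 of them were higher with 4OHT on both days. The fourth, the dimmest, differed by 0.20 and -0.17. Aars, for alanine, read 300.2 untreated and 451 with 4OHT at day 4, and 179 and 261 at day 6, with the 4OHT array higher on both days. It differed by 0.54 ± 0.21 (adjusted p = 0.232), and its second probe set differed by 0.91 at day 4 and 0.20 at day 6.

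Where a pair of values is given for a day below, the untreated array comes first. Sars, for serine, read 552 untreated and 678 with 4OHT at day 4, and 274 and 400.0 at day 6, a difference of 0.40 ± 0.21 that is carried by a probe set of the _s_at kind. Without such probe sets the value was -0.019. Vars, for valine, read 159.8 and 208 at day 4 and 129 and 165 at day 6, a difference of 0.33 ± 0.21 with similar sizes on both days. Mars1, for methionine, which also charges the initiator tRNA, read 319 and 431 at day 4 and 355 and 418 at day 6, a difference of 0.32 ± 0.21. The arrays of Mars1 split by arm on both days, at 431 and 418 with 4OHT against 319 and 355 without. Yars, for tyrosine, read 241 and 310.2 at day 4 and 157 and 182 at day 6 and differed by 0.27 ± 0.21. Phenylalanyl-tRNA synthetase is built from the catalytic alpha subunit of Farsa and the beta subunit of Farsb. Farsa read 49.8 and 63.0 at day 4 and 84.5 and 102 at day 6, and Farsb read 329.6 and 432 at day 4 and 865 and 1012 at day 6. Both subunits stood higher with 4OHT on both days, by 0.25 ± 0.21 and 0.30 ± 0.21, on their brightest probe sets. The other 3 probe sets of Farsa turned between the days, as did 2 of the other 3 of Farsb.

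The cytosolic genes Nars, Rars and Tarsl2 stood lower on both days. Nars, for asparagine, read 894 and 795 at day 4 and 1055 and 883 at day 6, a difference of -0.21 ± 0.21. Its second probe set was lower by more, at -0.88 and -0.86 on the days in turn. Rars, for arginine, read 236 and 195 at day 4 and 607 and 555 at day 6, a difference of -0.19 ± 0.21. Tarsl2, a second gene for cytosolic threonyl-tRNA synthetase, read 16.6 and 14.7 at day 4 and 80.3 and 43.9 at day 6 and lay under the filter's level at day 4. It differed by -0.39 ± 0.22. Hars, for histidine, turned with the day, with 391 untreated against 575 with 4OHT at day 4 and 428 against 411 at day 6. Lars, for leucine, turned likewise, with differences of 0.42 and -0.09.

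Mitochondrial genes stood on both sides of 0. Nars2, which charges mitochondrial asparagine tRNA, read 31.9 untreated and 17.0 with 4OHT at day 4, and 93.3 and 39.1 at day 6. It was lower with 4OHT on both days, with differences of -0.54 and -0.99, the latter the lowest of the 36 genes at day 6. Its difference over both days was -0.76 ± 0.22 (adjusted p = 0.072). Its day 4 value with 4OHT was under the level of the filter. After centring each array on its median it passed, with an adjusted p of 0.0444. Iars2, for isoleucine, read 36.4 untreated and 16.2 with 4OHT at day 4, and 203 and 146 at day 6, a difference of -0.57 ± 0.21 (adjusted p = 0.20). That gene was also under the filter's level with 4OHT at day 4. Fars2, for phenylalanine, read 97.6 and 83.8 at day 4 and 136 and 85.9 at day 6 and differed by -0.38 ± 0.21. Its second probe set turned, with 0.38 at day 4 and -0.16 at day 6. Aars2, for alanine, stood higher with 4OHT on both days, by 0.17 and 0.23. Tars2, for threonine, was lower at day 4 (-0.18) and higher at day 6 (0.63), the widest turn of the 36. Its second probe set was higher on both days, by 0.51 and 0.24.

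Over both days, 9 of 18 cytosolic genes were higher with 4OHT on each day, 3 were lower on each and 6 turned. Of 16 mitochondrial genes, 5 were higher on each day, 4 lower on each and 7 turned, and both dual genes turned. Over all genes past the filter 32.0% were higher on each day and 26.0% lower on each. At 1.5-fold, the threshold used where 1 array is set against 1, no synthetase gene was higher at day 4 (7.87% of all genes) and 1 was lower (Iars2; 5.62%). At day 6, 2 were higher (Wars and Tars2; 4.74%) and 2 lower (Nars2 and Tarsl2; 8.76%). At 2-fold no synthetase gene was higher or lower on either day, where 1.0% of all genes were higher and 1.22% lower at day 4, and 0.879% and 2.97% at day 6. These counts are near or under the background shares.

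**Figure D2:**
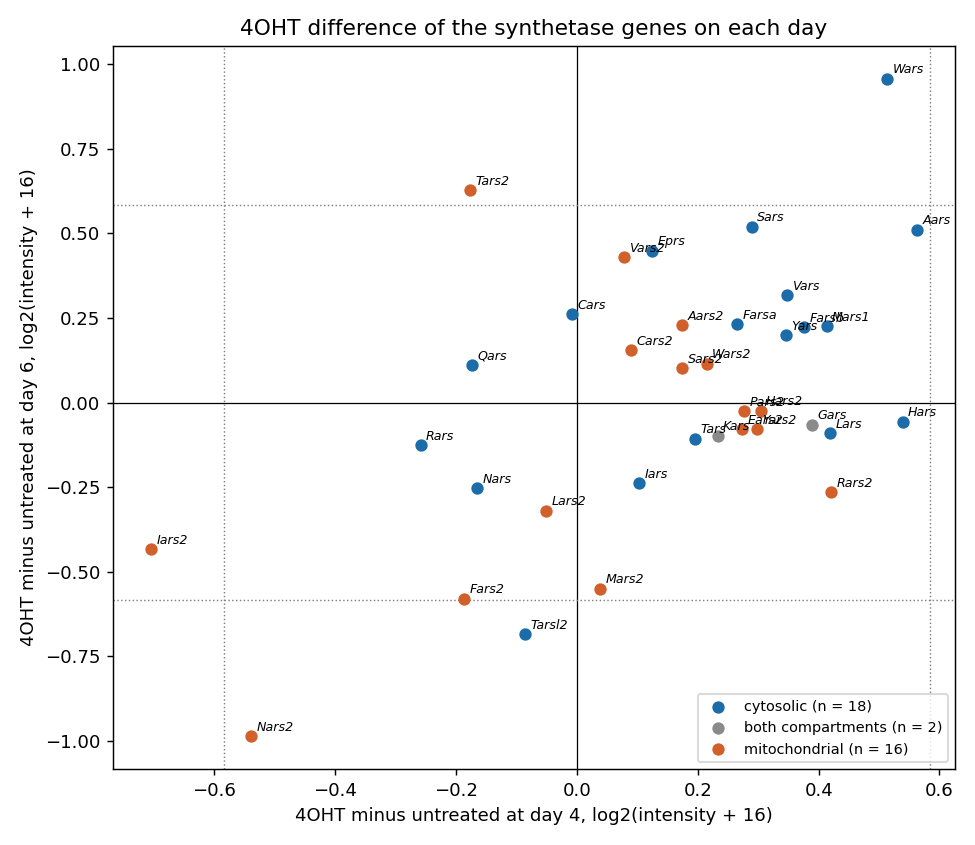
Difference between 4OHT and untreated organoids at day 4 (x axis) and day 6 (y axis) for each of the 36 genes, in log2(intensity + 16), coloured by compartment. Dotted lines mark 1.5-fold. Wars (0.51 and 0.96) lies furthest toward the upper right and Nars2 (-0.54 and -0.99) toward the lower left, and no gene lies past 1.5-fold on both days.

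Cytosolic and mitochondrial genes for the same amino acid were set side by side in 14 pairs, with Farsa standing for the cytosolic phenylalanine enzyme. The cytosolic gene had the higher 4OHT difference in 12 pairs at day 4, in 11 at day 6 and in 9 on both days. For asparagine the values over both days were -0.21 for Nars and -0.76 for Nars2. For tryptophan they were 0.73 for Wars and 0.16 for Wars2, and for phenylalanine 0.25 for Farsa and -0.38 for Fars2. In the arginine and threonine pairs the mitochondrial gene had the higher value. Only the brightest probe set of each gene was compared, and the counts depend on it. Sars differed by 0.12 and -0.16 on its second probe set, under Sars2 (0.17 and 0.10) on both days. Aars, at 0.91 and 0.20 on its second, was under Aars2 (0.17 and 0.23) at day 6. Tars2, at 0.51 and 0.24 on its second, was above Tars (0.20 and -0.11) on both days. The other way, Cars2 stood under Cars on both days on its second probe set (-0.45 and -0.06). The second probe set of Fars2 differed by 0.38 at day 4 and -0.16 at day 6, and the other probe sets of Farsa turned between the days. The second probe set of Nars differed by -0.88 and -0.86. All pairs come from the same 4 arrays, so they are not independent replicates, and the difference between compartments was not tested.

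The second comparison set day 6 against day 4, and here the synthetase genes split into a group that rose and one that fell. By limma over both arms, 18 of 36 rose, where 35.1% of all genes rose, and 10 fell (27.8%, where 18.8% of all genes fell), with 8 not past the test. With the level filter raised to the 75th percentile (65.1), which keeps brighter genes, 16 synthetase genes rose and 9 fell. Of all genes past that filter, 49.3% rose and 14.5% fell, so the share that rises is larger among brighter genes. The median over time was 0.63 in untreated and 0.24 in 4OHT-treated organoids, beside 0.16 and 0.04 over all genes. In single arrays, 19 genes were higher by 1.5-fold in untreated organoids (36.9% of all genes) and 7 lower (18.3%), and 13 were higher with 4OHT (29.0%) and 6 lower (14.2%). At 2-fold, 11 were higher untreated (24.1%) and 2 lower (5.29%), and 6 were higher with 4OHT (16.4%) and 0 lower (2.69%). Of the cytosolic genes 8 rose and 6 fell by limma, of the mitochondrial genes 8 rose and 4 fell, and both dual genes rose. The counts depend on how the days are scaled: quantile normalization, which moved the untreated median of all genes from 0.16 to -0.13, left 9 that rose and 13 that fell. Of all genes, 21.0% rose and 24.5% fell under that setting. Without a 4OHT term, 12 synthetase genes rose and 3 fell (26.2% and 10.2% of all genes). Dropping that term and also either array of day 4 left 0 of the 36 and 0 of all genes. Dropping it and also the untreated array of day 6 left 10 that rose and 0 that fell (19.0% and 3.13% of all genes), and with the 4OHT array of day 6 in its place 11 and 6 (27.1% and 7.88%). On the same arrays, the spiked hybridization controls were lower by 2.57 in untreated and 1.25 in 4OHT-treated organoids at day 6. The spiked poly-A controls were lower by 3.01 and 1.12. The 3' minus 5' difference of Actb was smaller as given above, and 6 of 8 epithelial markers rose. Of the tested genes on the marker lists of other cell types, 2 of 4 fibroblast, 3 of 4 immune and 0 of 3 endothelial genes fell. Lyz2 is among the immune genes that fell. It read 497 to 2046 while Ptprc lay under the level filter, so its fall cannot be assigned to immune cells. The part of these controls and markers in the changes over time was not tested. Day cannot be told apart from any difference in how the arrays of each day were run.

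The isoleucine genes of both compartments rose by the largest amounts. Iars read 195 untreated and 210.2 with 4OHT at day 4, and 889 and 751 at day 6, and rose by 1.93 ± 0.21 (SE, adjusted p = 3.29e-06). Iars2, read as given above, rose by 2.20 ± 0.21 (adjusted p = 1.06e-06). The second probe set of Iars was higher in both arms, by 2.04 with 4OHT, and that of Iars2, a dim one, was higher by 0.34 in each arm. The arginine genes also both rose, Rars by 1.37 ± 0.21 and Rars2 by 1.09 ± 0.22. Rars2 read 113 and 157 at day 4 and 334 and 275 at day 6. Of the 14 pairs of genes for the same amino acid, both genes passed in 7, in the same direction in 4. Both rose for isoleucine, leucine and arginine and both fell for alanine, while for cysteine, threonine and tyrosine they went opposite ways. Some of these directions rest on calls that depend on the processing. Of 9 other ways, the call of Tars2 held under 2, those of Cars and Lars under 3 each and that of Aars under 7. The second probe sets of Cars2 and Lars2 were lower in both arms.

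Hars2, for histidine in mitochondria, read 47.8 and 62.7 at day 4 and 178 and 175 at day 6 and rose by 1.44 ± 0.21, though its second probe set differed by -0.16 in untreated and 0.38 in 4OHT-treated organoids. Its cytosolic counterpart Hars differed by -0.17 ± 0.22 without passing, and a dimmer probe set of Hars was higher in both arms, by 1.04 and 0.71. Yars2, for tyrosine, read 17.4 and 25.1 at day 4 and 77.4 and 72.5 at day 6 and rose by 1.29 ± 0.21, with its second probe set higher by 1.49 in untreated organoids and by nearly the same with 4OHT. Tarsl2 rose by 1.26 ± 0.22, having passed the level filter only on its day 6 arrays. The other threonine gene of the cytosol, Tars, read 202 and 234 at day 4 and 483 and 448 at day 6 and rose by 1.04 ± 0.21. Both day 6 arrays stood above both day 4 arrays in each of these genes but Hars.

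Both phenylalanine subunits rose, Farsb by 1.27 ± 0.21 and Farsa by 0.60 ± 0.21. Of the 4 probe sets of Farsb, 3 were higher at day 6 in both arms, and the dimmest was lower. For Farsa only the brightest of 4 was higher in both arms, and the mean of all its probe sets was -0.071. Qars, for glutamine, read 1044 and 923 at day 4 and 1654 and 1787 at day 6 and rose by 0.80 ± 0.21. Of its 4 probe sets, 1 was lower in both arms. Lars2, for leucine in mitochondria, read 74.3 and 71.2 at day 4 and 181 and 142 at day 6 and rose by 0.99 ± 0.21, while its second, dimmer probe set was lower in both arms. Nars2 rose by 0.97 ± 0.22, in untreated organoids by more (1.19) than with 4OHT (0.74), a difference that was not tested. Cars2, for cysteine, read 74.8 and 80.6 at day 4 and 145 and 163 at day 6 and rose by 0.86 ± 0.21, while its second probe set was lower in both arms. The remaining genes that rose did so by 0.55 to 0.61. Gars, the dual gene for glycine, read 309 and 409.7 at day 4 and 541 and 516 at day 6. Kars, the dual gene for lysine, which also belongs to the complex, read 167 and 199 at day 4 and 297 and 276 at day 6. Ears2, for glutamate in mitochondria, read 29.2 and 38.7 at day 4 and 60.1 and 56.0 at day 6. In each of these 3, both day 6 arrays stood above both day 4 arrays, and the same held for Lars, which read 255 and 346 at day 4 and 455 and 427 at day 6. A second probe set of Ears2 was lower in both arms and another higher. After quantile normalization Gars was at -0.019 and Lars at -0.039.

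Tryptophan, serine, alanine and tyrosine genes of the cytosol fell. Wars, read as given above, fell by 1.04 ± 0.22 (adjusted p = 0.000882), with both day 6 arrays under both day 4 arrays. Of its other 3 probe sets, 2 were lower in both arms and the other one was 0.17 higher in untreated and lower (-0.37) in 4OHT-treated organoids. Without _x_at and _s_at probe sets the value was -0.10 and the call was lost, as was that of Aars. Sars fell by 0.85 ± 0.21 and its second probe set was also lower in both arms. Aars fell by 0.73 ± 0.21, but its second probe set differed by 0.27 in untreated and -0.43 in 4OHT-treated organoids. Yars fell by 0.65 ± 0.21, and Cars, for cysteine, by 0.54 ± 0.21. Cars read 144 and 143 at day 4 and 84.5 and 104 at day 6, and its dim second probe set differed by 0.04 and -0.27. The call of Cars held under 3 of 9 other ways of processing. Eprs, whose single protein charges both glutamate and proline tRNAs, fell by 0.66 ± 0.21 on its brightest probe set, which read 838 untreated and 916 with 4OHT at day 4, and 468 and 644 at day 6. The next 2 probe sets of Eprs were higher at day 6 in both arms, by 1.66 and 0.74 in untreated organoids. Without _x_at and _s_at probe sets, Eprs stood at 1.34 with an adjusted p of 0.000217, so that its direction over time is not settled by these arrays.

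In mitochondria, Vars2, for valine, read 207 and 219 at day 4 and 83.4 and 118 at day 6 and fell by 0.99 ± 0.21, with both of its probe sets lower in both arms. Pars2, for proline, read 74.5 and 93.6 at day 4 and 47.2 and 46.1 at day 6 and fell by 0.67 ± 0.21. Aars2 read 81.2 and 93.7 at day 4 and 49.3 and 60.5 at day 6 and fell by 0.55 ± 0.21. Tars2 read 311 and 273 at day 4 and 149 and 239 at day 6 and fell by 0.58 ± 0.23, mostly in untreated organoids (-0.98, against -0.18 with 4OHT). Its second probe set averaged 0.069, so its fall rests on the brightest alone.

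The 8 genes that did not pass over time were Fars2, Hars, Mars1, Mars2, Nars, Sars2, Vars and Wars2, with values from -0.47 to 0.49. Mars2, for methionine in mitochondria, was the dimmest and read 5.63 and 6.22 at day 4 and 21.2 and 9.41 at day 6, past the filter on the untreated array of day 6 alone. Sars2 read 37.3 and 44.2 at day 4 and 28.6 and 31.9 at day 6 and Wars2 84.4 and 100.5 at day 4 and 59.1 and 65.3 at day 6, both lower at day 6 in both arms. Hars and Mars1 turned between the arms.

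**Figure D3:**
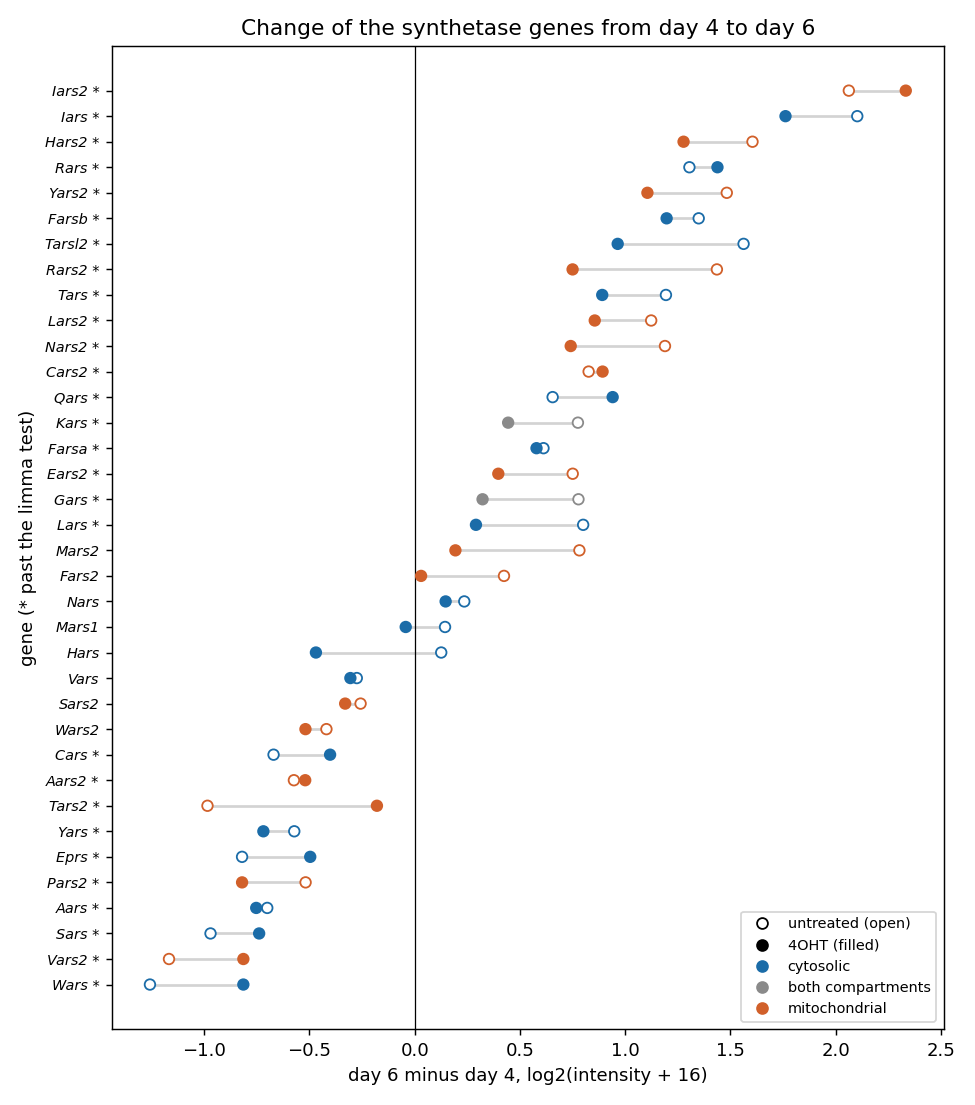
Change from day 4 to day 6 of each synthetase gene in log2(intensity + 16), open points untreated and filled points 4OHT, coloured by compartment and ordered by the mean of the arms. An asterisk marks genes past limma's test. Genes run from Wars (-1.26 untreated and -0.81 with 4OHT) to Iars2 (2.06 and 2.33), and both compartments stand at both ends.

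In all, 7 of the genes that rose and 3 that fell were called in the same direction under each of 9 other ways of processing. Those that rose were Farsb, Hars2, Iars, Iars2, Rars, Tarsl2 and Yars2, and those that fell were Pars2, Sars and Vars2. Tarsl2 passed the level filter only on its day 6 arrays. The 9 do not include dropped terms or left-out arrays, and no call was kept without either array of day 4. Calls held under fewest of the 9 for Tars2 (2), Cars and Lars (3 each) and Gars and Ears2 (4 each). Of the 21 genes with more than 1 probe set past the level filter, 8 had all of them on the same side of 0 over time in both arms. These 8 were Fars2, Iars, Iars2, Nars, Sars, Vars2, Wars2 and Yars2. With 4OHT, 4 of the 21 had all probe sets on the same side of 0 on both days (Aars, Iars2, Nars and Vars2).

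**Figure D4:**
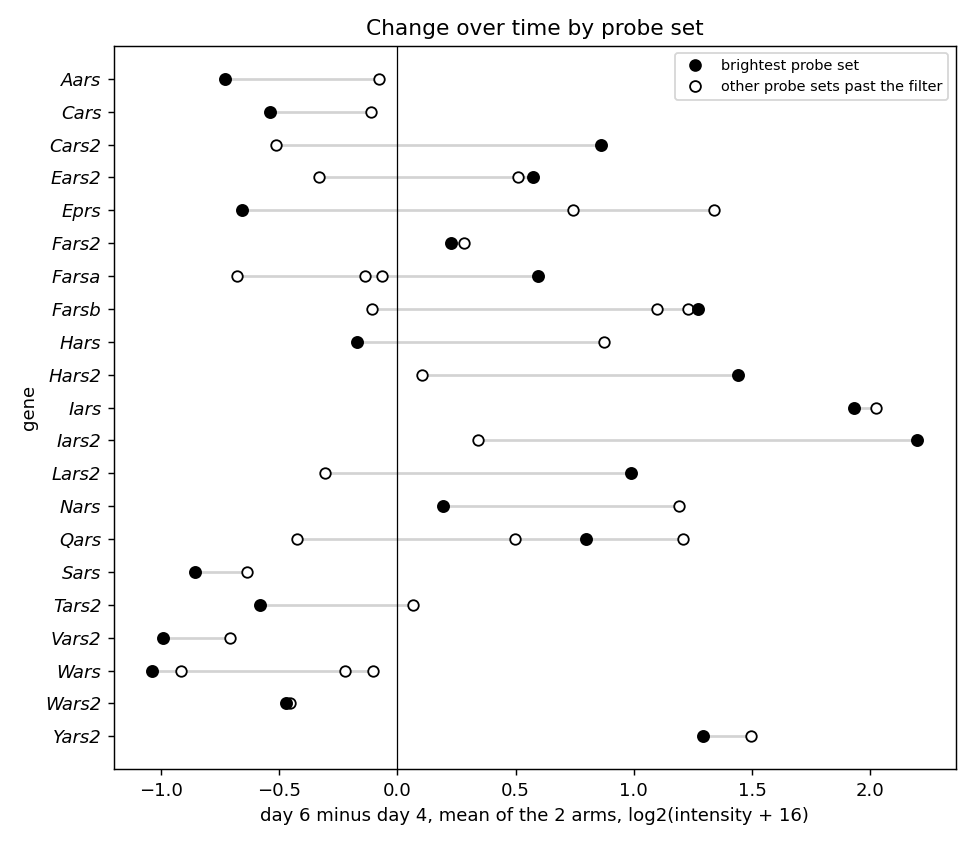
Change from day 4 to day 6, averaged over the arms in log2(intensity + 16), for each probe set of the 21 genes with more than 1 past the level filter. Filled points are the brightest probe set, whose value the text gives. Iars, Sars and Yars2 have probe sets close together, while those of Eprs, Cars2 and Farsa lie on both sides of 0.

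Other ways of grouping the genes gave the following counts over time, to be read against the 35.1% of all genes that rose and the 18.8% that fell. Of 19 class I genes, whose active site is a Rossmann fold, 10 rose and 5 fell, and of 17 class II genes 8 rose and 5 fell. Eprs, which charges both glutamate and proline tRNAs, was counted in class I only, though the proline gene Pars2 stands in class II. Of 7 measured enzymes of the multi-synthetase complex (Eprs, Iars, Kars, Lars, Mars1, Qars and Rars), 5 rose, Eprs fell on its brightest probe set and Mars1 did not pass. Of 13 cytosolic or dual genes often listed as ATF4 targets, 4 rose (Gars, Iars, Lars and Tars) and 6 fell (Aars, Cars, Eprs, Sars, Wars and Yars). Of the other 7, 6 rose, none fell and Hars did not pass. Several calls among the listed targets depend on the processing. Those of Aars and Wars were lost without _x_at and _s_at probe sets, and Eprs rose there. The calls of Cars and Lars held under 3 of 9 other ways of processing each, and that of Gars under 4. Among the 5 genes with the composite element in their window, Gars, Iars and Tars rose while Aars and Yars fell. With 4OHT none of these groups held a gene past the test. Their median differences over both days were 0.27 for the listed ATF4 targets and 0.07 for the other 7, beside 0.02 over all genes. Aars, Eprs, Iars, Sars and Wars of the listed targets were read by _s_at or _x_at probe sets, as were Farsb and Qars of the others. Without such probe sets the 4OHT value of Sars turned, as given above, and the contrast between the groups was not tested.

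The scaffold genes of the complex were set beside its enzymes. Aimp1 read 191 untreated and 173 with 4OHT at day 4, and 525 and 435 at day 6, and rose by 1.32 ± 0.21 over time. Eef1e1 read 142 untreated and 105 with 4OHT at day 4, and 335 and 264 at day 6, and rose by 1.18 ± 0.21. Both stood higher on both day 6 arrays than on both day 4 arrays, as did 5 of the 7 complex enzymes. Aimp2 read 206 untreated and 372 with 4OHT at day 4, and 311 and 399 at day 6, and did not pass over time (0.33 ± 0.22). With 4OHT it stood at 0.58 ± 0.22 (adjusted p = 0.208), while Aimp1 and Eef1e1 stood at -0.20 ± 0.21 and -0.36 ± 0.21, and none of the 3 passed.

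Of 26 tested amino acid response genes, 1 rose with 4OHT and none fell. This was the stress-induced gene Nupr1, which read 692 untreated and 1392 with 4OHT at day 4, and 149.7 and 823 at day 6, and rose by 1.67 ± 0.27 (adjusted p = 0.00167; 0.97% of all genes rose). The call held under 5 of 10 alternatives and was lost with the mean of probe sets, no level filter, a pseudocount of 1 or 64, and no day term. Next by the smaller difference of the days were Phgdh, the first enzyme of serine synthesis, at 0.77 ± 0.21 (adjusted p = 0.0566), and the pseudokinase gene Trib3 and the transcription factor gene Cebpb, at -0.43 ± 0.21 and -0.58 ± 0.21. Phgdh read 553 untreated and 939 with 4OHT at day 4, and 284 and 504 at day 6, with the 4OHT array higher on both days. Over time 7 of the 26 rose (26.9%, against 35.1% of all genes) and 10 fell (38.5%, against 18.8%). Nupr1 fell by 1.42 ± 0.27 and Phgdh by 0.90 ± 0.21, while Cebpb rose by 0.95 ± 0.21. Atf4, itself one of these genes, was singled out after its values were seen, because another list used here is of ATF4 targets. It read 1017 untreated and 960.4 with 4OHT at day 4, and 980.1 and 904 at day 6, and stood at -0.10 ± 0.21 for 4OHT and -0.07 ± 0.21 over time, passing neither test.

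In the steps around charging, several genes rose over time, where 35.1% of all genes rose and 18.8% fell, and none passed with 4OHT. Of 7 cytosolic elongation and termination genes, 4 rose and none fell. Among them Eef1b2, an exchange factor subunit, rose by 0.79 ± 0.21 and Eef2, the translocation factor, by 0.77 ± 0.21, while Eef1d (-0.35 ± 0.21) and Eef2k (-0.04 ± 0.21), the kinase that inhibits Eef2, did not pass. Of 9 mitochondrial translation factor genes, 7 rose and none fell. The elongation factor genes Gfm1 and Guf1 rose by 1.30 ± 0.21 and 1.72 ± 0.21. Guf1 read 8.69 and 9.43 at day 4 and 59.1 and 75.3 at day 6, and passed the level filter only on its day 6 arrays. Tsfm rose by 1.02 ± 0.22, while Tufm, which delivers charged tRNA to the mitochondrial ribosome, did not pass (-0.19 ± 0.22). The 4OHT differences of Tsfm and Tufm turned between the days, which held for 7 of the 9 genes. Unlike Gfm1 and Guf1, they were not singled out by the smaller difference of the days. Of 10 charging and editing partners, 5 rose and none fell. They include Qrsl1, a subunit of the amidotransferase that makes mitochondrial glutaminyl-tRNA, which read 74.4 untreated and 102 with 4OHT at day 4, and 237 and 322 at day 6. They also include Sepsecs, which turns seryl into selenocysteinyl-tRNA and rose by 1.62 ± 0.21.

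Some Wnt target genes did change with 4OHT on these arrays. Of 10 Myc and Wnt target genes 4 rose (Axin2, Cd44, Nkd1 and Rnf43) and none fell, where 0.97% of all genes rose and 2.25% fell. Of 10 alternatives, the calls held under 6 for Rnf43, 5 for Cd44 and Nkd1 and 3 for Axin2. Cd44 read 60.7 untreated and 201 with 4OHT at day 4, and 211 and 546 at day 6, and rose by 1.40 ± 0.21. Among the markers above, Lyz2 rose with 4OHT by 1.31 ± 0.25 and Krt20 fell by 1.41 ± 0.21, calls that held under 5 and 6 of 10 alternatives. With no level filter, a pseudocount of 64 or no day term, 0 of all genes passed with 4OHT in either direction. Myc, a transcription factor known to act on ribosome and translation genes, was added after its values were seen. It read 122 untreated and 81.2 with 4OHT at day 4, and 355 and 419 at day 6, stood at -0.14 ± 0.23 with 4OHT without passing, and rose by 1.79 ± 0.23 over time.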

How the data were processed

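RNA of 4 organoid samples, labelled with a 3' IVT kit from 100 ng per the labels' protocols, was measured on 1 Affymetrix array each. The deposited values were linear probe-set intensities. The sources used here do not say how the authors summarised and scaled them. Values ran from 2.73 to 23910.3. Of the probe sets, 34945 carried 1 gene symbol, 932 several, 9211 had no annotation here and 64 were controls. The Entrez IDs of 34741 matched a current gene, and no symbol changed. Symbols are those of the annotation.

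Each gene was represented by its brightest probe set by mean over the arrays. Differences were taken on log2(intensity + 16), which understates changes of dim probe sets. limma 3.58.1 in R 4.3.3 was fitted with additive 4OHT and day terms to 13192 genes whose highest intensity reached 20.9, with Benjamini-Hochberg adjustment over all of them and a threshold of 0.05. The fit had 1 residual degree of freedom, moderated with 15.2 prior ones. It was also run on simulated data with additive effects and independent noise drawn to match its own prior. That run cannot show how well the fit does on these arrays. Comparisons of 1 array with 1 were counted at 1.5-fold without a test. Tables and plots used Python 3.11.15 with pandas 2.3.3, numpy 2.4.6 and matplotlib 3.10.9. Alternatives were other filters, pseudocounts, probe-set rules, centring, quantile normalization, thresholds, dropped terms and leaving out each array.

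Members and gene lists were chosen with earlier results of these data known. Values per array are given for the synthetase genes past either test and for the 14 with the largest smaller difference between the days in 1 direction. Up to 4 genes of each other list were named by that measure, and others are marked where they stand. Nothing says whether the arrays came from separate cultures, and p-values do not measure a spread between cultures. They rest on how far the 4OHT effect differs between the days, moderated over genes. A probe set that names Aars together with Exosc6 was left out.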

Additional observations from a re-analysis of the deposited data

Results flagged for a closer look

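For 15 of the 36 synthetase genes the 4OHT difference had opposite signs at day 4 and day 6, as for 41.6% of all genes past the level filter. Each sign rests on 1 array against 1, and the difference between the days was not tested. The spiked hybridization controls also turned, from -0.41 at day 4 to 0.92 at day 6, and their part was not tested. The day 6 minus day 4 change in the 4OHT difference, on the log2(intensity + 16) scale, was 0.81 for Tars2, 0.29 for Qars and 0.27 for Cars, which went from lower to higher. It was negative for the other 12, which went from higher to lower. The widest were Rars2 at -0.69, Hars at -0.60, Mars2 at -0.59 and Lars at -0.51, followed by Gars at -0.46. Smaller values were found for Yars2 at -0.38, Ears2 at -0.35, Iars at -0.34, Kars at -0.33, Hars2 at -0.33, Tars at -0.30 and Pars2 at -0.30. Tars2 is the only one of these that passed 1.5-fold on a day, and its second probe set did not turn (0.51 and 0.24).

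The change over time had opposite signs in untreated and 4OHT-treated organoids for Hars, with -0.60 between the arms, and for Mars1, with -0.19. Of all genes past the filter, 12.6% did so, and the difference between the arms was not tested.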

How the results depend on the processing

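With 4OHT, no synthetase gene passed under any alternative but median centring, where 1 fell (Nars2), and an adjusted p under 0.1, where 1 rose and 1 fell. With no level filter, a pseudocount of 64 or no day term, 0 of all genes passed, so those counts say nothing of the synthetases. Leaving out each array, which also drops the day term, 0 synthetase genes rose and 0 fell, of 0 to 8 and 0 to 57 over all genes. Over all genes 128 rose and 297 fell in the reported fit, against 7 and 40 with a pseudocount of 1, 39 and 134 with all probe sets averaged, 62 and 183 with the filter on the mean, 74 and 217 after quantile normalization, and 201 and 412 at an adjusted p under 0.1. Over time, 9 rose after quantile normalization. Those that fell numbered 5 after median centring, 6 without _x_at and _s_at probe sets and 3 without a 4OHT term. Leaving out each array, which also drops the 4OHT term, gave 0 to 11 that rose and 0 to 6 that fell, with all genes at 0 without either array of day 4. Over all genes 4631 rose and 2474 fell over time in the reported fit, against 2766 that rose after quantile normalization, and 1238 that fell with the filter at the 75th percentile, 1182 with a pseudocount of 64 and 1347 without a 4OHT term. The cytosolic median at day 6 with 4OHT was -0.073 without _x_at and _s_at probe sets, and over time it was -0.47 (untreated) and -0.39 (4OHT) after quantile normalization. At 2-fold, 0 genes were lower at day 4, and 0 higher and 0 lower at day 6, with 4OHT. Over time 11 were higher and 2 lower in untreated organoids, and 6 higher and 0 lower with 4OHT. The cause was not tested. Of single values, Sars with 4OHT turned to -0.019 without _x_at and _s_at probe sets. Over time Eprs turned to 0.35 when all probe sets were averaged and 1.34 without _x_at and _s_at, Farsa to -0.071 when all were averaged, Tars2 to 0.069 without _x_at and _s_at, and Gars to -0.019 and Lars to -0.039 after quantile normalization. Of the other single values, 138 of the 4OHT effect and 216 over time kept direction and call, 57 over time lost the call and 1 of 4OHT (Nars2, median centring) gained it. No paired analysis was possible because the labels give no replicate numbers and each group is 1 array, beyond the day term, by which the reported fit compares the arms within days. Limits are the single array per group, scaling between days that is not known, and probe sets near background, where differences shrink on this scale.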
